A study of Rattus norvegicus with 2 samples.

Results

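Immediate early genes are transcribed within minutes of a stimulus, from factors already present in the cell. The 10 genes described here are among those outside the AP-1 and Nr4a families that serum, growth factors or synaptic activity induce. They are the early growth response factors Egr1, Egr2 and Egr3, the synaptic gene Arc and the immediate early response genes Ier2, Ier3 and Ier5. The others are the serum response factor gene Srf, the antiproliferative gene Btg2 and the mRNA decay gene Zfp36. The 10 were taken by symbol from a table of 17049 genes, and all were found, each with whole read numbers in both libraries. Bulk RNA-seq was done on primary cultures of oligodendrocyte precursor cells (OPCs), the glial progenitors that form myelinating oligodendrocytes, of wild-type adult rat brain. One library came from cells given 1 µM amyloid-β (Aβ), the peptide that builds plaques in Alzheimer's disease, for 2 days. The other is labelled DMSO, a solvent, though its treatment text also names Aβ, and both were grown in OGM medium at 37 °C with 5% CO2. The comparison asks which of these stimulus-responsive genes stood at another level after Aβ. Levels with Aβ were read at 2 days only, so a response in the first minutes was not measured.

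Growth factor, calcium and other signals reach these genes in part through the ERK and p38 kinases. These act on SRF with its ternary complex partners (the Elk proteins) at CArG boxes and on CREB at cAMP response elements. The proteins made include transcription factors such as the EGR family, which carry the response to later genes, and brakes such as Zfp36 and Btg2, which shorten mRNAs or slow division. In neurons Egr1 and Arc are widely used as marks of recent activity. In glia, Egr2 is best known from Schwann cells, where it drives myelination.

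Each group had 1 library, of 15704932 reads with Aβ and 15663751 reads with DMSO, so that no difference had a replicate check and no p-value is given. A read ratio below is Aβ over DMSO in reads per total reads, with an exact 95% binomial interval that covers counting error only and compares the 2 libraries, not the conditions. Levels are in TPM, which corrects reads for gene length and library total. A gene was kept if it reached 1 TPM in either library, which held for 12980 genes and for all 10 described here. Of the OPC markers, Olig1 was at 1420.5 and 1557 TPM and Ptprz1 at 866 and 905 TPM with Aβ and DMSO, and Cspg4 at 6.65 and 3.70 TPM, whereas Sox10 was at 0.84 and 1.22 TPM and Gpr17 at 0.13 TPM in each. The 8 OPC markers summed to 2667 TPM with Aβ and 2880 TPM with DMSO, and of the 7 kept the interval was above 1 for 1 and below it for 4. Astrocyte markers were abundant too, at 2122 and 2161 TPM in sum, with 328 TPM of Gfap with Aβ and 368 TPM with DMSO, and the 10 microglial markers summed to 195 TPM with Aβ and 235 TPM with DMSO. The 8 oligodendrocyte markers summed to 209 TPM with Aβ and 219 TPM with DMSO. The 4 fibroblast markers measured summed to 3.01 and 6.09 TPM, with an interval below 1 for 2 of the 3 kept and above 1 for 0. In such a bulk sample, fewer cells of a type and less RNA per cell cannot be told apart.

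All 10 genes had more reads per total with Aβ than with DMSO. A ratio above 1 was held by 50.5% of all genes kept. The counting interval lay above 1 for 8 of the 10 and below 1 for 0, against 12% and 12.5% of genes kept and, above 1, 13.1% of the 10581 genes with 200 or more reads. At least 25% higher with Aβ were 5 of the 10 (Arc, Egr2, Egr1, Ier3 and Egr3), where 7.57% of genes kept and 3.93% of those with 200 or more reads were. None was at least 20% lower, as 6.54% of genes kept were. The median log2 ratio of the 10 was 0.32, beside 0.00 over all genes kept, and the ratios ran from 1.02 for Srf to 2.01 for Arc.

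**Figure D1:**
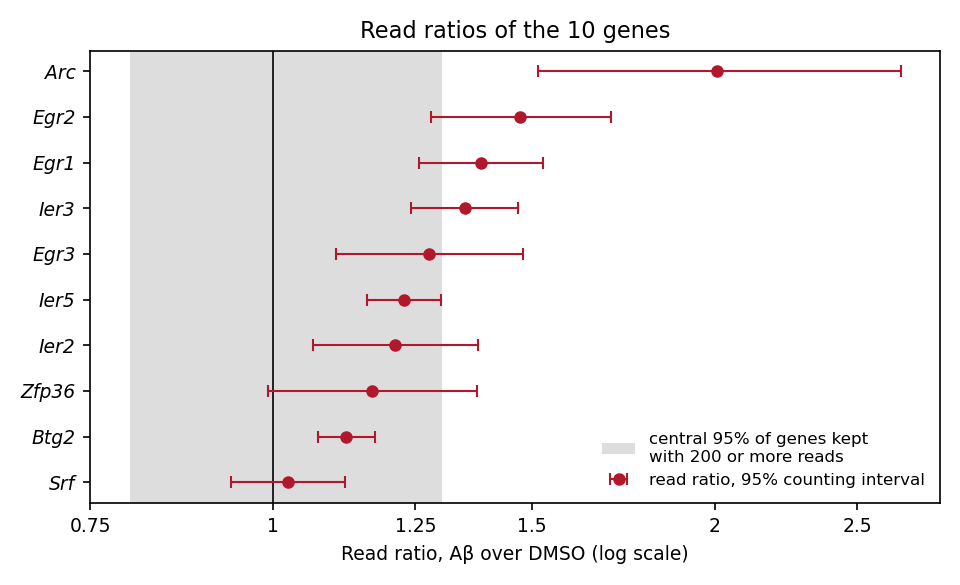
Read ratio of each gene, Aβ over DMSO, on a log axis, with 1 library per group; bars are 95% counting intervals and the grey band holds the central 95% of genes kept with 200 or more reads (0.798 to 1.30). Arc, Egr2, Egr1 and Ier3 lie beyond the band, and the bars of Srf and Zfp36 reach 1.

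The 3 EGR factors were all higher with Aβ and kept their proportions to one another. EGR proteins bind GC-rich elements through nearly identical zinc fingers. Egr1 (gene number 24330), the most abundant, was at 77.1 TPM with Aβ and 55.6 TPM with DMSO, on 983 and 708 reads (ratio 1.38, 1.26 to 1.53). Egr2 (114090), also called Krox20, was at 17.4 TPM with Aβ and 11.8 TPM with DMSO, on 495 and 335 reads (1.47, 1.28 to 1.70). Egr3 (25148) was at 14.6 TPM with Aβ and 11.6 TPM with DMSO, on 424 and 331 reads (1.28, 1.10 to 1.48). The 3 intervals overlapped, so no order among the EGR ratios stands beyond counting error. Egr4 had 7 reads with Aβ and 1 with DMSO (ratio 6.98, 0.897 to 315), under 0.4 TPM in both, which is too few to place. By TPM, Egr1 made up 70.5% of the 4 EGR transcripts with Aβ and 70.3% with DMSO, and Egr3 13.3% and 14.6%. Their summed reads of 1909 with Aβ and 1375 with DMSO gave a ratio of 1.38 (1.29 to 1.49).

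NAB proteins bind EGR factors and repress their targets, and Nab2 is itself a known EGR target. Nab2 was at 71.1 TPM with Aβ and 51.1 TPM with DMSO, on 2341 and 1701 reads (1.37, 1.29 to 1.46). Nab1, which is not known for such induction, was at 35.9 and 35.0 TPM with Aβ and DMSO (1.03, 0.949 to 1.11). The interval of Nab2 lay wholly above that of Nab1. Whether the EGR factors had a part in the Nab2 ratio was not tested.

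The stretches before the starts of Egr1 and Egr2 are shown for the SRF sites through which serum is known to act on both genes. Capitals mark CArG boxes, an A/T-rich core between CC and GG. Both are RefSeq sequences of build GRCr8, written 5′ to 3′ on the gene's strand, and end at the last base before the start of transcription (Egr1 at chr18:26736958-26737077, plus strand, and Egr2 at chr20:21054442-21054561, minus strand).
Egr1: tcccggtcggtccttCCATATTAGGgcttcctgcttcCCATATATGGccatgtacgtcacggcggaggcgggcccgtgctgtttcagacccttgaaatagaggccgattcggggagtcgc
Egr2: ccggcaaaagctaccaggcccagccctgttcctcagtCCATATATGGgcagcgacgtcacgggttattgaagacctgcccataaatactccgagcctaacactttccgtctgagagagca
The box nearer the start had the same letters, CCATATATGG, in both genes and lay at the same distance, from 83 to 74 bases before the start. Egr1 held another from 105 to 96 bases before it. The RefSeq table gave windows for 7 of the 10 genes and none for Egr3, Arc or Ier3.

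Arc had the largest ratio of the 10 and the fewest reads. It encodes a protein that in neurons trims AMPA receptors from synapses and is made from mRNA carried into dendrites. Arc (54323) was at 5.20 TPM with Aβ and 2.54 TPM with DMSO, on 153 and 76 reads (2.01, 1.52 to 2.68). It was the lowest of the 10 genes in both libraries, and its interval lay wholly above those of 7 others, all but Egr1 and Egr2. Beside it, 7 of 8 neuron markers were kept, with an interval above 1 for Rbfox3 (1.85, 1.06 to 3.31) and Snap25 (149 reads with Aβ and 99 with DMSO) and below 1 for Syt1 (0.490, 0.297 to 0.790) and Gad1 (0.772, 0.598 to 0.994). The 8 summed to 137 TPM with Aβ and 134 TPM with DMSO, of which Map2 alone held 105 and 107 TPM. No neuron marker was at 0, and Slc17a7, of excitatory neurons, was at 0.28 and 0.11 TPM. Their part in the Arc ratio was not tested.

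The 3 IER genes are named for how they are induced. Ier3 (294235), a short-lived protein of cell survival that NF-κB and serum induce, was at 158 TPM with Aβ and 118 TPM with DMSO, on 1309 and 967 reads (1.35, 1.24 to 1.47). Ier5 (498256), which helps activate the heat shock factor HSF1, was at 136 TPM with Aβ and 110.3 TPM with DMSO, on 2539 and 2063 reads (1.23, 1.16 to 1.30). Ier2 (494344), a nuclear protein, was at 41.0 TPM with Aβ and 33.8 TPM with DMSO, on 522 and 430 reads (1.21, 1.06 to 1.38). All 3 were higher by the counting interval, and the 3 intervals overlapped. Ier5l, a relative of Ier5, was at 59.5 and 54.2 TPM with Aβ and DMSO, on 799 and 727 reads, and its interval included 1.

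In the sequence before the start of Ier2 the capitals mark a full cAMP response element, TGACGTCA, the palindrome bound by CREB, from 66 to 59 bases before the start (RefSeq, GRCr8, chr19:40399253-40399372, plus strand).
Ier2: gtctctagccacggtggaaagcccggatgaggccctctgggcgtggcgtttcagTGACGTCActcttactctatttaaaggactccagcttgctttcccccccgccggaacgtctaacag
The window of Ier5 held none of the 3 motifs searched, which says only that these letters are not in the 250 bases read.

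**Figure D2:**
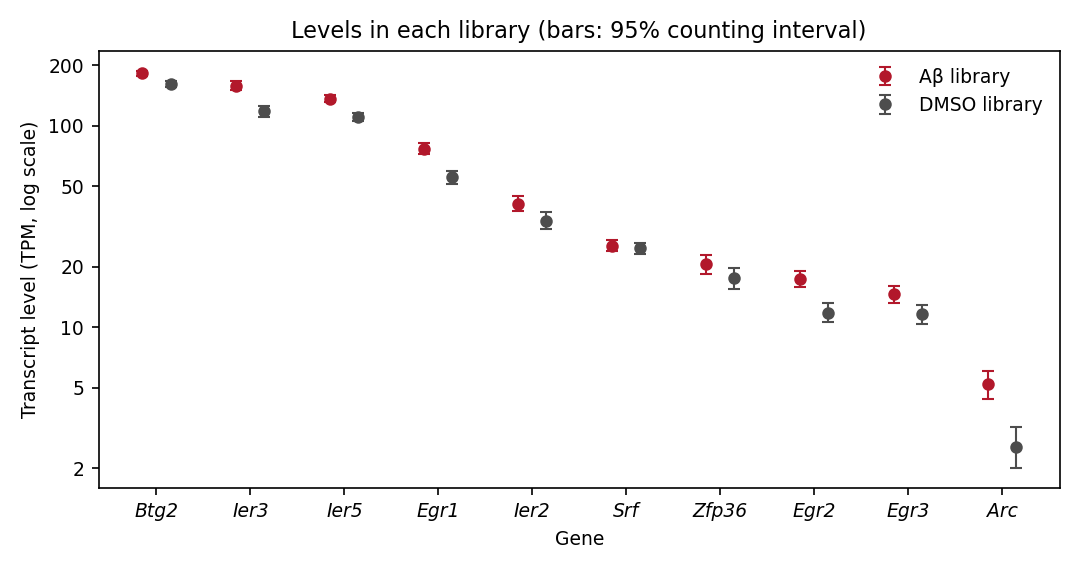
Level of each gene in TPM on a log axis, with the Aβ library in red left of the DMSO library in grey, 1 library each; bars are 95% counting intervals. Levels ran from 182 TPM for Btg2 to 5.20 TPM for Arc with Aβ, and from 162 to 2.54 TPM with DMSO.

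Srf had the ratio nearest 1 of the 10 genes. SRF is the factor at CArG boxes of Egr1, Egr2 and Fos, and its own gene is serum-induced. Srf (501099) was at 25.4 TPM with Aβ and 24.6 TPM with DMSO, on 994 and 969 reads (1.02, 0.936 to 1.12). Its interval lay wholly below those of Arc, Egr1, Egr2, Ier3 and Ier5 and overlapped those of Egr3, Ier2, Btg2 and Zfp36. Of its partners, Elk1 had a ratio of 1.20 (1.08 to 1.35), Elk3, on reads that were not whole, 1.04 (0.943 to 1.15), and Elk4 0.933 (0.885 to 0.984). Mkl2, a coactivator that links SRF to actin, had 95 reads with Aβ and 74 with DMSO (1.28, 0.935 to 1.76), and Mkl1 had 515 and 517 (0.994, 0.878 to 1.12). Of 5 SRF cofactors kept, the interval lay above 1 for 1 and below 1 for 1. The cytoskeletal genes that SRF also controls, 12 kept, had a median log2 ratio of 0.01, and the interval was above 1 for 3 genes and below it for 1. Within these the largest differences among genes with 50 or more reads were those of Cnn2 (0.830, 0.681 to 1.01), Myl9 (0.838, 0.542 to 1.29) and Tagln (1.10, 0.649 to 1.86), all actin-associated.

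The Srf promoter is shown because it carries the motif of its own product in duplicate and, in front of them, the letters GCGNGGGCG that EGR proteins bind, all in capitals (RefSeq, GRCr8, chr9:21923956-21924075, plus strand).
Srf: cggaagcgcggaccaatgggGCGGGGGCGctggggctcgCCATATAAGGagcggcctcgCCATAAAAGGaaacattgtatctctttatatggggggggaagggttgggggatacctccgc
The CArG boxes lay from 81 to 72 and from 61 to 52 bases before the start, and the EGR motif from 100 to 92, on the gene's strand.

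Zfp36 and Btg2 encode proteins that hasten mRNA decay through the CCR4-NOT deadenylase. Zfp36 (79426), or tristetraprolin, binds AU-rich elements of cytokine mRNAs. It was at 20.5 TPM with Aβ and 17.5 TPM with DMSO, on 322 and 275 reads (1.17, 0.991 to 1.38), and its interval included 1. Its relative Zfp36l1 was more abundant, at 63.0 TPM with Aβ and 57.5 TPM with DMSO (1.09, 1.01 to 1.17). Zfp36l2, on reads that were not whole, was at 1.22 and 1.80 TPM (0.668, 0.483 to 0.920). By TPM, Zfp36 held 24.2% of the 3 transcripts with Aβ and 22.8% with DMSO, and their summed reads gave a ratio of 1.08 (1.01 to 1.15).

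Btg2 (29619), an inhibitor of cell division that p53 and growth factors both induce, was the most abundant of the 10. It was at 182 TPM with Aβ and 162 TPM with DMSO, on 4214 and 3748 reads (1.12, 1.07 to 1.17), a small difference with the narrowest interval of the 10. Of its relatives, Btg3 had 420 reads with Aβ and 324 with DMSO (1.29), Tob1 had a ratio of 1.05 (0.931 to 1.18), Tob2 of 0.956 (0.822 to 1.11) and Btg1 of 0.957 (0.896 to 1.02). The CCR4-NOT subunits stayed close to equal, and the 11 kept had ratios from 0.906 to 1.08. The interval lay above 1 for 1 (Cnot8, 1.08, 1.001 to 1.17) and below 1 for 3. Cnot9 was the lowest (0.906, 0.852 to 0.964), and Cnot4 was at 1.08 (0.973 to 1.19).

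The promoters of Zfp36 and Btg2 are shown for the motifs in capitals, which differ between them (RefSeq, GRCr8). That of Zfp36 (chr1:92799109-92799228, minus strand) ends at the last base before the start and holds the EGR motif from 79 to 71 bases and a CArG box from 32 to 23 bases before it. The stretch of Btg2 (chr13:48087811-48087910, minus strand) lies farther out and holds a cAMP response element from 201 to 194 bases and the EGR motif from 166 to 158 bases before the start.
Zfp36: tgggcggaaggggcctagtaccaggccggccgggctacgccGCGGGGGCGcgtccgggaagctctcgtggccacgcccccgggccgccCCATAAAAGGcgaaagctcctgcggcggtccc
Btg2: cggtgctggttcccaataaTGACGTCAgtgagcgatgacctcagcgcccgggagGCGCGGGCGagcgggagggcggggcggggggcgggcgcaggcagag
The CArG box of Zfp36, CCATAAAAGG, had the same letters as the box nearer the start in Srf. Motifs were searched on both strands in the 250 bases before each start, and no match overlapped another in these genes. A CArG box was present in 4 of the 7 windows, and in 501 of all 33469 promoters of that length. TGACGTCA was in 2 of 7 and in 1.59% of all, and GCGNGGGCG in 3 of 7 and in 4.29% of all. Such matches are descriptions of sequence, and no binding was measured.

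**Figure D3:**
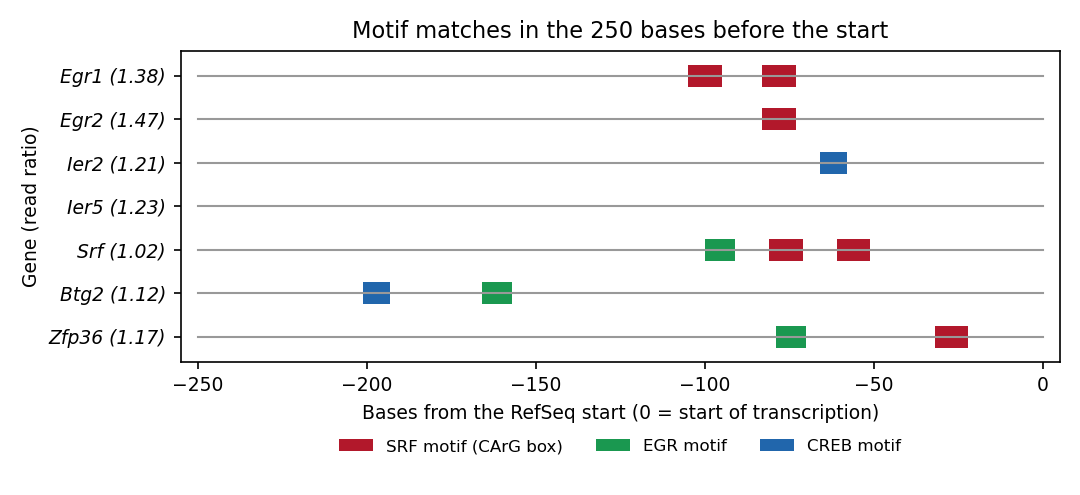
Matches to the 3 motifs in the 250 bases before the RefSeq start of the 7 genes with a window, with each gene's read ratio in brackets. The CArG boxes nearest the start of Egr1 and Egr2 line up at 83 bases, and genes with a box had ratios from 1.02 to 1.47.

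Among the 10 genes, 14 of 45 pairs had intervals of the ratio that did not overlap, and the intervals of 31 did. Such a count depends on read depth and was not made for pairs of other genes. Of the 14, 7 set Arc above another gene and 9 set Srf or Btg2 below one, with 2 counted in both. Neighbours in the order of levels had intervals of the level apart in both libraries except Zfp36 with Egr2 (Aβ only), Ier3 with Ier5 (DMSO only) and Egr2 with Egr3 (both). The order itself, Btg2, Ier3, Ier5, Egr1, Ier2, Srf, Zfp36, Egr2, Egr3 and Arc, was the same with Aβ and DMSO. Summed over the 10, the level was 678 TPM with Aβ and 547 TPM with DMSO.

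**Figure D4:**
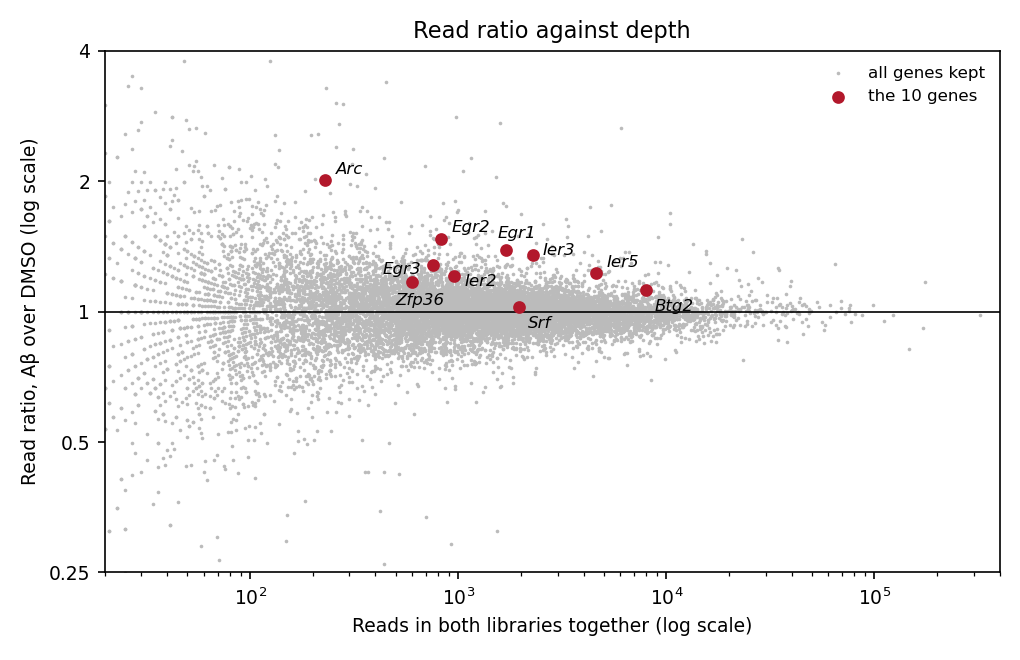
Read ratio, Aβ over DMSO, against reads in both libraries together, both on log axes; grey points are the genes kept with reads in both libraries and red points the 10 genes, within the ranges drawn. The scatter of all genes widens at low depth, where Arc lies, while Btg2, with the most reads of the 10 and a ratio of 1.12, sits in the narrow part.

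Set against genes with 200 or more reads, Arc stood at percentile 99.8 of the ratios, Egr1 at 98.6, Ier3 at 98.2 and Egr3 at 97.0, with Egr2 between Arc and Egr1. Ier5 was at 95.4, Ier2 at 94.7, Zfp36 at 92.0, Btg2 at 87.3 and Srf at 60.0. In the plane of log2(TPM + 1) of both libraries, the genes nearest to Egr1 among 10751 with whole reads were Cd14 (distance 0.017), Arl4c and Nipsnap1. Cd14 was at 76.2 TPM with Aβ and 55.7 TPM with DMSO. Those nearest to Arc were Nlrp3 (distance 0.0901), Zfpm1 and Kcne4, and Nlrp3 was at 5.44 TPM with Aβ and 2.72 TPM with DMSO. Likeness over 2 libraries is a likeness of level and ratio alone.

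Among other immediate early genes, many but not all stood above 1. Of 34 further ones kept, 30 had a ratio above 1 and 4 (Cyr61, Gadd45g, Maff and Rnd3) below, the interval lay above 1 for 19 and below 1 for Gadd45g (0.766, 0.683 to 0.860), and the median log2 ratio was 0.27. The largest differences were those of the neurotrophin gene Bdnf on 54 reads with Aβ and 25 with DMSO (2.15, 1.32 to 3.61), the repressor gene Bhlhe40 (2.04, 1.83 to 2.28) and the EGF receptor ligand gene Hbegf (1.77, 1.67 to 1.87). Of 9 AP-1 and Nr4a genes kept, 7 had a ratio above 1 and 4 were at least 25% higher, with an interval above 1 for 5 and below 1 for 0. Nr4a1 had 719 reads with Aβ and 255 with DMSO (2.81, 2.43 to 3.26) and Fos 539 and 376 (1.43), and Nr4a2 261 and 135 (1.93, 1.56 to 2.39), while Jun was at 1.11 (1.04 to 1.19). The 2 below 1 were Fosl1 (0.936, 0.862 to 1.02) and Jund (0.996, 0.903 to 1.10). A CArG box was in 2 of 30 windows of the further genes, Klf6 and Rnd3, with ratios of 1.20 and 0.992.

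The kinases and cofactors upstream of these genes lay on both sides of 1 in mRNA. Of 16 kinases from RAF to MAPKAP kinases, 7 had a ratio above 1 and 9 below, with an interval above 1 for 2 and below 1 for 4. Map2k2, which encodes the ERK activator MEK2, was at 1.19 (1.10 to 1.28), and Mknk1, a kinase below ERK and p38, at 0.766 (0.690 to 0.850). Rps6ka5, which phosphorylates CREB, was at 0.885 (0.757 to 1.04). Of 8 genes of the CREB route, the interval lay above 1 for Crem (1.33, 1.19 to 1.49) and the coactivator gene Crtc1 (1.16, 1.07 to 1.27) and below 1 for Crebbp (0.890, 0.806 to 0.983). Creb1 was at 0.945 (0.884 to 1.01). The ERK feedback genes, 13 kept, had a median log2 ratio of 0.10, with an interval above 1 for 6 and below 1 for 1. They were led by the phosphatase genes Dusp2, on 46 reads with Aβ and 21 with DMSO (2.18, 1.28 to 3.85), Dusp4 on 41 and 24 (1.70, 1.01 to 2.95) and Dusp5 on 286 and 177 (1.61, 1.33 to 1.96).

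The mRNAs known as targets of ZFP36 decay were mostly higher with Aβ. Of the 15 kept with reads in both libraries, 13 had a ratio above 1 and 11 were at least 25% higher, with an interval above 1 for 10 and below 1 for 0. Ptgs2, the inducible cyclooxygenase, had 183 reads with Aβ and 76 with DMSO (2.40, 1.83 to 3.18), and Il6 had 213 and 97 (2.19, 1.71 to 2.81). For Tnf the table gave 76.02 reads in the Aβ library and 0 in the DMSO library, a number that is not whole, so no ratio is given and Tnf is not in these counts. The list holds Ier3 itself, and Myc is also among the further immediate early genes. Microglial markers, measured beside these cytokine mRNAs, had a median log2 ratio of -0.09 over 9 kept, with an interval above 1 for 0 and below 1 for Aif1 (0.778, 0.635 to 0.953) and C1qa (0.672, 0.589 to 0.765). None of the 10 microglial markers was at 0, and their part in these ratios was not tested.

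Egr2 was also set beside markers of Schwann cells, whose myelination it drives. Pmp22 was at 201 TPM with Aβ and 170 TPM with DMSO (1.18, 1.12 to 1.24) and the signal gene Dhh at 8.02 and 5.22 TPM (1.53, 1.20 to 1.94). Prx was at 1.15 and 1.52 TPM (0.752, 0.514 to 1.09). These were the 3 such markers kept, and the interval lay above 1 for 2 and below 1 for 0. Their part in the Egr2 ratio was not tested.

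**Figure D5:**
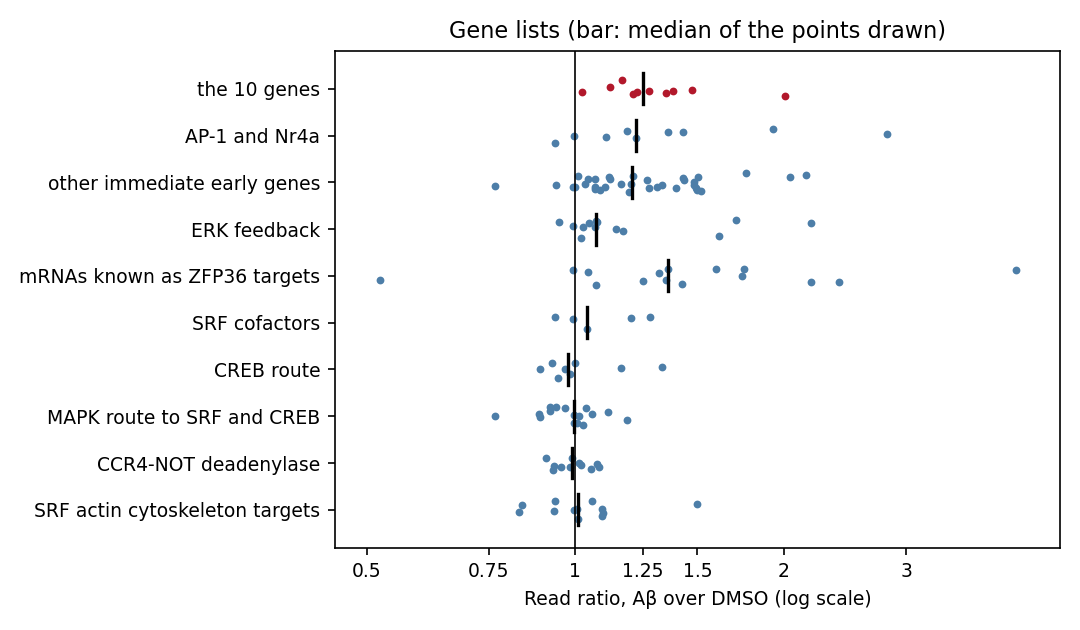
Read ratio, Aβ over DMSO, of each gene kept in the 10 genes and 9 related lists on a log axis, with a bar at the median of the points drawn; Tnf, at 0 reads with DMSO, is not drawn. The 10 genes, the AP-1 and Nr4a genes, the further immediate early genes and the ZFP36 targets lie mostly above 1, and the kinases, CREB route and CCR4-NOT subunits spread about 1.

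The authors' deposited table of gene ontology terms for genes higher with Aβ, drawn from these same libraries, listed 5 of the 10 genes under at least 1 of its 282 terms. Those terms held 246 different genes in all, where 17049 genes were measured. In the authors' deposited table Egr1 stood under 37 terms, Egr3 under 20, Arc under 12, and Egr2 and Ier3 under 7 each. Ier2, Ier5, Srf, Btg2 and Zfp36 were under none, and these 5 had the lowest read ratios of the 10. Egr1, Egr2 and Arc were together in the terms cognition (27 genes, fold enrichment 2.71) and regulation of synaptic plasticity (21 genes, fold enrichment 2.97). They were also together in regulation of neuronal synaptic plasticity (11 genes, 5.20) and learning or memory (24 genes, 2.67) of the authors' deposited table. How its genes were picked is not stated, and as the list was chosen on these libraries it is not independent evidence.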

How the data were processed

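RNA-seq of 2 libraries of rat OPCs, 1 with Aβ and 1 with DMSO, was analysed; the control was told by its treatment label, since the protocol text of both names Aβ. The submitters' processing notes name Bowtie2 and the build Rnor_6.0; the counter and annotation are not stated. The authors' deposited table gives estimated counts, TPM and FPKM. Its normalized read count columns are the counts rounded up and were treated as a score, per the file headers and values, and not used. Whether it was counted by strand is not stated. The deposited enrichment table gives fold ratios and p-values; its p-values are not used.

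Estimated counts were rounded to whole numbers. Ratios used total counts, with 95% Clopper-Pearson (exact binomial) intervals on the Aβ share of a gene's reads; intervals of levels are exact Poisson. As reads carry no molecular identifiers, both cover counting error only. Where a gene had 0 reads the limit is 3, equal to 0.191 CPM with Aβ and 0.192 CPM with DMSO. Levels were compared between genes only in TPM. Steps ran in Python 3.11.15 with scipy 1.17.1, and scaling factors came from edgeR 4.0.16. Only the ratios and their intervals were tested on simulated data, which held counting error alone. The members, lists and thresholds were chosen with earlier results of these data known. Named were all members, the 3 most different genes per list with 50 or more reads, and 12 others listed by name. In the cell type lists not every gene of that rule is described: Olig2, Aqp4, Aldh1l1, Tmem119 and single oligodendrocyte and fibroblast genes are not. Mkl1, Creb1, Gad1, Slc17a7, Map2, Gadd45g, Klf6, Rnd3, Cyr61, Maff, Fosl1, Jund, Myc, Olig1, Ptprz1 and Gpr17 were added after their values were seen. Promoter windows are RefSeq GRCr8, matched by gene number. A marker gene of the Schwann list is not reported here.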

Additional observations from a re-analysis of the deposited data

How the results depend on the processing

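TPM with a pseudocount of 1 or of 0.1, and scaling by TMM or by the median of ratios, gave 40 ratios for the 10 genes, all within the counting interval of the value reported. The median log2 ratio of the 10 ran from 0.30 to 0.33 over these and over 3 filters (none, 50 or more reads, whole reads only). With a pseudocount of 1, Egr3 (1.24) no longer passed the threshold of 25%, leaving 4 genes. At 1.5-fold, 1 of the 10 (Arc) was higher, beside 358 genes higher and 355 lower of all kept. Without a filter 2425 genes were at least 25% higher and 2487 at least 20% lower. With 99% intervals 961 genes lay above 1 and 988 below, and 8 of the 10 still lay above. No paired analysis was possible because each group had 1 library. Depth limits Arc most, and Egr4 and Slc17a7 had too few reads to compare.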
